A study of Mus musculus with 12 samples.

Results

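The nuclear genes of the respiratory chain were examined in bulk RNA sequencing of mouse trigeminal ganglion, the ganglion that holds the sensory neurons of the cornea and face. Members were chosen by symbol alone, as protein-coding genes whose symbols start with Nduf, Sdh, Uqcr, Cox and a digit, or Atp5, together with Cyc1. This rule uses no measured value and takes in 108 genes. Of these, 24 could be measured, and all 24 passed the filter on low counts, among 13053 counted intervals tested. The 24 are 10 genes of complex I, 3 of complex II, 3 of complex III, 5 of complex IV and 3 of complex V. By role they are 6 catalytic core subunits, 9 accessory subunits, 7 assembly factors and 2 tissue isoforms.

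All 12 libraries came from female C57BL/6J mice of 8 weeks, in 4 groups of 3. The control group was untreated. The injury group was taken 2 weeks after a keratectomy of 1.5 mm diameter, the removal of the epithelium and upper stroma of the central cornea of 1 eye. The group with injury and stimulation had the same wound and received electrical stimulation (ES) through the skin over the orbit at 300 µA and 20 Hz for 4 min a day over 14 days. The group with stimulation alone had the current without the wound. Wounding brought ketamine, xylazine and an analgesic, and stimulation brought isoflurane, so these agents cannot be told apart from the treatments. The wound was made in 1 randomly chosen eye. No label gives the side of the ganglion or the number of animals behind a library, and no library is labelled as a sham. The p-values therefore measure the spread between libraries, which may be technical.

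The respiratory chain is a series of protein complexes in the inner mitochondrial membrane. Complexes I and II take electrons from NADH and succinate, complex III passes them from ubiquinol to cytochrome c, complex IV hands them to oxygen, and complex V makes ATP from the proton gradient that complexes I, III and IV build. Most of its subunits are encoded in the nucleus and imported, a few are encoded in mitochondrial DNA, and dedicated assembly factors join them. Sensory neurons have long axons and are known for a high demand for mitochondrial ATP.

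The measured genes were limited by how the deposited counts were made. The reads lie on GRCm38 coordinates and were counted in gene intervals drawn for GRCm39, so a gene was read from the interval that lies over its GRCm38 exons and no other gene's, with at least 100 bp of them. Of the 108 genes, 54 had no interval over their exons, 26 had only intervals shared with other genes, and 4 had a single-gene interval under 100 bp. Only 6 of the 24 measured genes were counted under their own identifier (Ndufa4, Ndufa5, Ndufa9, Ndufaf4, Ndufaf6 and Sdhaf3), and the other 18 came from an interval deposited under another gene's name. Exons of the gene made up between 2.763% and 100% of its interval, with a median of 14.8%, so intronic and unannotated RNA and RNA of the opposite strand in the rest of the interval is counted too. Taken under the deposited identifiers, the 108 genes had a median of 0.293 counts per 1000000 reads (CPM), against 94.3 CPM for the 24 read by position. These medians are over unlike sets of genes, and the part of that in the gap was not tested. Reads placed at several positions, such as those shared with processed pseudogenes, were not requested in the counting. Levels are therefore compared between libraries for 1 gene, never between genes.

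Coding stretches are printed here for 4 members that were called with stimulation alone, in either direction. Over the longest transcript, GC content is 61.42% for Cyc1, 53.01% for Uqcrc1, 44.41% for Uqcrc2 and 50.29% for Ndufa5, so Ndufa5 and Uqcrc1 differ less there than in the stretches shown. The median of named genes is 49.35%, so Ndufa5 is not a member poor in G and C, although its printed stretch is. Each is a coding stretch under the counted interval, on GRCm38, 5′ to 3′ on the strand of the gene, all in lower case because no base is singled out. They come from the GENCODE M21 transcripts. The Cyc1 stretch lies at chr15:76343564-76343658 on the plus strand, starts at the start codon and is 76.8% G or C. The Uqcrc1 stretch lies at chr9:108947598-108947758 on the plus strand and is 53.4% G or C. The Uqcrc2 stretch lies at chr7:120640234-120640298 on the plus strand and is 41.5% G or C. The Ndufa5 stretch lies at chr6:24522659-24522775 on the minus strand and is 40.2% G or C.
Cyc1: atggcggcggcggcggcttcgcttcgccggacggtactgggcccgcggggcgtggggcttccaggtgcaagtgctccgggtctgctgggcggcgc
Uqcrc1: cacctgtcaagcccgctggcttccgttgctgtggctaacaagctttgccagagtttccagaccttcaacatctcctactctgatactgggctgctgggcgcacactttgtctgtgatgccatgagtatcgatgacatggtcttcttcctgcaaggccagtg
Uqcrc2: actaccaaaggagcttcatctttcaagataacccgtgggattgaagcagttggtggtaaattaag
Ndufa5: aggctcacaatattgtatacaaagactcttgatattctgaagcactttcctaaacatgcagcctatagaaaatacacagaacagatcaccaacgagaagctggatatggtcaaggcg
Against control, Cyc1 and Uqcrc1 were higher with stimulation alone, and Uqcrc2 and Ndufa5 were lower, as given by complex below.

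Libraries held between 7952798 and 10751547 counted reads. Sensory neuron markers were present in every library: 7 of the 15 listed could be named, and their summed level was 5190 to 5761 CPM in controls and 6449 to 11520 CPM in the other groups. On the first principal component of all tested intervals, 2 libraries stood apart from their groups, the second of injury with stimulation at -32.45 (the others at 57.39 and 20.73) and the third of stimulation alone at -28.44 (the others at 13.49 and 21.45). Both lay toward the controls, which spanned -54.68 to -46.98. Results that rest on these libraries are given with and without them. In bulk tissue, fewer cells of a type and less RNA per cell cannot be told apart.

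After corneal injury, 8 of the 24 members were higher than in controls and 1 was lower, at an adjusted p under 0.05 in edgeR's quasi-likelihood test over all 13053 intervals. Over all intervals, 19.3% were called higher and 11.7% lower, 31.0% in all. The median log2 fold change of the members was 0.28, against 0.029 for all intervals tested. The 8 included the complex I subunits Ndufs7, Ndufv1 and Ndufa10, the complex III subunits Cyc1 and Uqcrc1, and Cox10 and Cox4i2 of complex IV, while the complex I assembly factor Ndufaf4 was lower. By role, 4 of 6 core subunits, 2 of 9 accessory subunits, 1 of 7 assembly factors and 1 of 2 tissue isoforms were higher. Of the 6 members whose exons made up at least 50% of the interval, none was higher and 1 was lower. The count fell from 9 to 4 without control replicate 1 or injury replicate 2 and to 5 without injury replicate 3. It was 12 with the libraries that stood apart left out. Over the whole table the intervals called went from 4046 to 2735, 2465 and 3063 in the same order, and to 5279 in the last of these fits. Injury and control did not overlap for 11 members, where 52.6% of all intervals did not.

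With stimulation and no injury, 8 members were higher and 8 lower than in controls. Over all intervals, 18.2% were called higher and 11.7% lower, 29.8% in all, and the median log2 fold change was -0.17 for the members and 0.029 for all intervals. The higher ones included Ndufs7, Ndufv1, Ndufa10, Cyc1, Uqcrc1, Cox10 and Cox4i2. Lower were Ndufa5, Ndufb4, Ndufaf4, Sdhaf2, Sdhaf3, Uqcrc2, Ndufa4 and Atp5s. All 4 core subunits that were called were higher, and of the 5 assembly factors that were called 4 were lower. Of the 6 members counted under their own identifier, none was higher and 4 were lower. The same counts held for the 6 members whose exons made up at least 50% of the interval. Neither set holds a core subunit. Exons made up 5.36% to 14.9% of the interval in core subunits, and 6.437% to 20.79% in the 8 higher members. For the core subunits, role and the way a gene was measured therefore cannot be told apart. This comparison and the one on injury share their 3 control libraries, so their values are set side by side and not counted as separate evidence. The count fell from 16 to 9 without control replicate 1 or stimulation replicate 2 and to 10 without stimulation replicate 1, and it was 16 with the libraries that stood apart left out. Over the whole table the intervals called went from 3896 to 2881, 2640 and 2675 in the same order, and to 4896 in the last of these fits. Stimulation alone and control did not overlap for 17 members, where 47.1% of all intervals did not.

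Among injured mice, no member was called between stimulated and unstimulated animals, where 1.54% of all intervals were called, 0.0383% higher and 1.5% lower. DESeq2 called 0 members as well. At an unadjusted p under 0.05 there was 1 member, Cox7a1, whose adjusted p of 0.264 was the lowest of the 24. The members' median log2 difference was -0.00069.

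Between the stimulated groups, 5 members were higher with the wound than without it and none was lower, where 2.21% of all intervals were called higher, 1.85% lower and 4.07% either way. They were Ndufa5, Ndufb4, Sdhaf3, Uqcrc2 and Ndufa4. The count was 0 when any of injury with stimulation replicates 1 and 3 or stimulation replicates 2 and 3 was left out, 1 without stimulation replicate 1, 3 without control replicate 1 or injury replicate 2 or 3, and 8 without injury with stimulation replicate 2. It was also 0 in a fit of the 6 libraries of the groups compared, where no interval of the whole table was called. With the libraries that stood apart left out it was 5. Over the whole table the intervals called fell from 531 to 225 without injury with stimulation replicate 1 and 76 without its replicate 3. They were 286 without stimulation replicate 2 and 74 without stimulation replicate 3. They rose to 1804 without injury with stimulation replicate 2 and to 1149 with the libraries that stood apart left out. The stimulated groups did not overlap for 11 members, where 19.9% of all intervals did not.

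Injury with stimulation against control gave 6 higher members and none lower, where 12.3% of all intervals were called higher, 4.93% lower and 17.2% either way. They included Ndufs7, Ndufv1, Ndufa10, Cyc1 and Uqcrc1. Without injury with stimulation replicate 3 the count was 0, and only 11 intervals of the whole table were then called. Without replicate 2 of that group, the library that stood apart, it was 10, and with the libraries that stood apart left out it was 12, 10 of them higher and 2 lower. Over the whole table the intervals called went from 2247 to 4349 and 4846 in the same order. The groups did not overlap for 8 members, where 32.8% of all intervals did not.

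**Figure D1:**
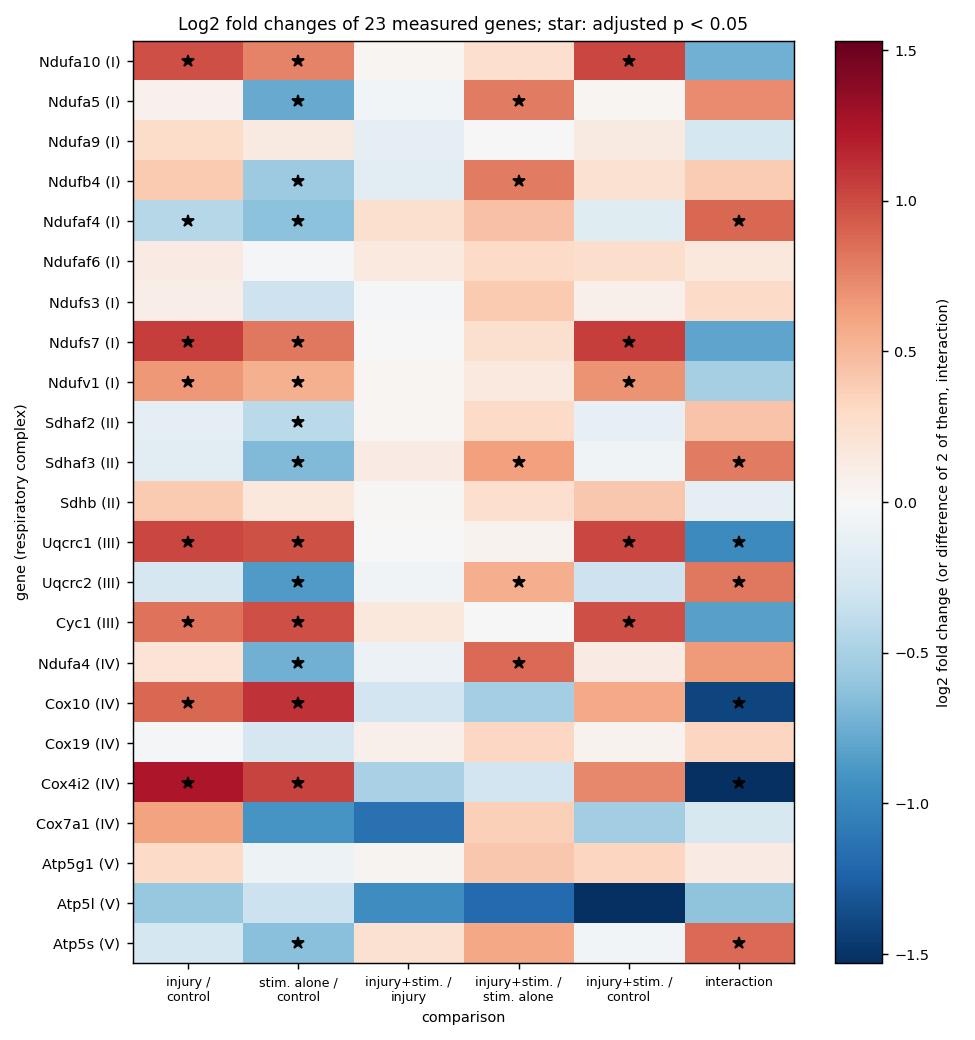
Heat map of the log2 fold change of 23 measured genes (vertical axis, with the respiratory complex in brackets) in the 6 comparisons (horizontal axis), with red for higher, blue for lower and a star for an adjusted p under 0.05. The column for injury with stimulation against injury has no star, and that for stimulation alone against control has 7 red and 8 blue starred cells.

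In complex I, the core subunits Ndufs7 and Ndufv1 were higher than in controls after injury, with stimulation alone and with both. Ndufs7 carries the iron-sulfur cluster that passes electrons to ubiquinone and lies on chromosome 10 at 80249121 to 80256794. Its levels were 59.4, 70.3 and 81.0 CPM in controls, 131, 155 and 154 CPM after injury, 198, 87.3 and 153 CPM after injury with stimulation, and 143, 138 and 88.4 CPM with stimulation alone. The controls did not overlap any treated group, and the lowest treated values came from the libraries that stood apart. On the log2 scale the change was 1.06 ± 0.24 (SE) after injury (adjusted p = 0.00451), 0.81 ± 0.24 with stimulation alone (adjusted p = 0.0177) and 1.06 ± 0.24 for injury with stimulation (adjusted p = 0.00831). The injury call held in every fit that left out 1 library. The stimulation call did not survive leaving out control replicate 1 or stimulation replicate 1 or 2 (adjusted p up to 0.124), and that for injury with stimulation without its replicate 3 (adjusted p = 0.0628).

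Ndufv1, which binds NADH and the flavin cofactor, lies on chromosome 19 at 4007384 to 4012806. It stood at 101, 109 and 106 CPM in controls, 138, 177 and 184 CPM after injury, 213, 116 and 181 CPM after injury with stimulation, and 157, 173 and 131 CPM with stimulation alone. The groups did not overlap with controls, although 116 CPM in the second library with injury and stimulation was near the highest control. Against control the log2 change was 0.66 ± 0.19 after injury (adjusted p = 0.0155), a call not kept when control replicate 1, injury replicate 2 or 3, injury with stimulation replicate 3 or stimulation replicate 1 was left out (adjusted p up to 0.0632). It was 0.69 ± 0.19 for injury with stimulation (adjusted p = 0.0195), lost without control replicate 1 or 3 or injury with stimulation replicate 1 or 3 (adjusted p up to 0.119). With stimulation alone it was 0.55 ± 0.19 (adjusted p = 0.0384), lost without any 1 control, injury with stimulation replicate 3 or stimulation replicate 1 or 2 (adjusted p up to 0.228). Ndufs3, another core subunit of complex I, was called in no comparison, with 35.4 to 47.7 CPM in controls and 31.4 to 37.3 CPM in the group with current alone, a difference of -0.31 ± 0.16 on the log2 scale (adjusted p = 0.167).

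Accessory subunits of complex I went in opposite directions with stimulation alone, but they were not measured alike. Exons made up 13.4% of the interval for Ndufa10, which was higher, and none of its exon bases there were coding. For Ndufa5 and Ndufb4, which were lower, exons made up 99.52% and 7.326%. The part of the way of measuring in these directions was not tested. Ndufa10, an accessory subunit on the matrix side of the membrane arm (chromosome 1 at 92439010 to 92473860), stood at 91.5, 113 and 107 CPM in controls, 186, 234 and 199 CPM after injury, 274, 119 and 239 CPM after injury with stimulation, and 188, 196 and 145 CPM with stimulation alone. It was above the controls in all 9 treated libraries. The log2 fold change was 0.99 ± 0.23 after injury (adjusted p = 0.00481), held in each fit that left out 1 library, 0.77 ± 0.23 with stimulation alone (adjusted p = 0.0181), lost without control replicate 1 or 3 or stimulation replicate 1 or 2 (adjusted p up to 0.107), and 1.02 ± 0.23 for injury with stimulation (adjusted p = 0.00773), lost without replicate 3 of that group (adjusted p = 0.0676).

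Ndufa5, an accessory subunit of the matrix arm that was counted under its own identifier on chromosome 6 at 24518666 to 24528013, was lower with stimulation alone. It stood at 434, 381 and 539.6 CPM in controls, 455, 478 and 490.4 CPM after injury, 547, 345 and 489 CPM after injury with stimulation, and 285, 289 and 219.5 CPM with stimulation alone. The group with stimulation alone lay below all other libraries. Its log2 fold change against control was -0.77 ± 0.18 (adjusted p = 0.00416, at most 0.0349 with 1 library left out), against 0.07 ± 0.18 for injury (adjusted p = 0.796). Injury with stimulation was 0.80 ± 0.18 above stimulation alone (adjusted p = 0.0216), a call lost without any 1 of stimulation replicates 1 to 3 or of injury with stimulation replicates 1 and 3 (adjusted p up to 0.122).

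Ndufb4, an accessory subunit of the membrane arm on chromosome 16 at 37647170 to 37654453, stood at 348, 317 and 434 CPM in controls, 439.9, 494 and 519 CPM after injury, 538, 309 and 448 CPM after injury with stimulation, and 291, 253 and 205 CPM with stimulation alone. The 3 libraries with stimulation alone were again the lowest of the 12. The log2 fold change with stimulation alone was -0.55 ± 0.19 (adjusted p = 0.0398), and injury with stimulation was 0.79 ± 0.19 above stimulation alone (adjusted p = 0.0307). Of the fits that left out 1 library, the first call held only without control replicate 2, stimulation replicate 1 or injury with stimulation replicate 1 or 2 (adjusted p otherwise up to 0.197). The second held only without control replicate 2 or 3, injury replicate 1 or injury with stimulation replicate 2 (adjusted p otherwise up to 0.149). Ndufa9, the other accessory subunit measured, ranged from 30.4 to 44.3 CPM and was called nowhere.

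Of the complex I assembly factors, Ndufaf4 was lower after injury and with stimulation alone, and Ndufaf6 was called nowhere (23.9 to 43.8 CPM). Ndufaf4 was counted over its whole 3902 bp of exons on chromosome 4 at 24898083 to 24905001. It stood at 150.1, 113 and 168 CPM in controls, 102, 109.6 and 107 CPM after injury, 105, 128 and 145 CPM after injury with stimulation, and 93.5, 96.6 and 88.0 CPM with stimulation alone. The control at 113 CPM lay close above the injured libraries and overlapped those with injury and stimulation. On the log2 scale the change was -0.63 ± 0.16 with stimulation alone (adjusted p = 0.00588, at most 0.0459 with 1 library left out) and -0.44 ± 0.16 after injury (adjusted p = 0.0436), the latter lost without control replicate 1 or 3 or any 1 injury library (adjusted p up to 0.198).

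**Figure D2:**
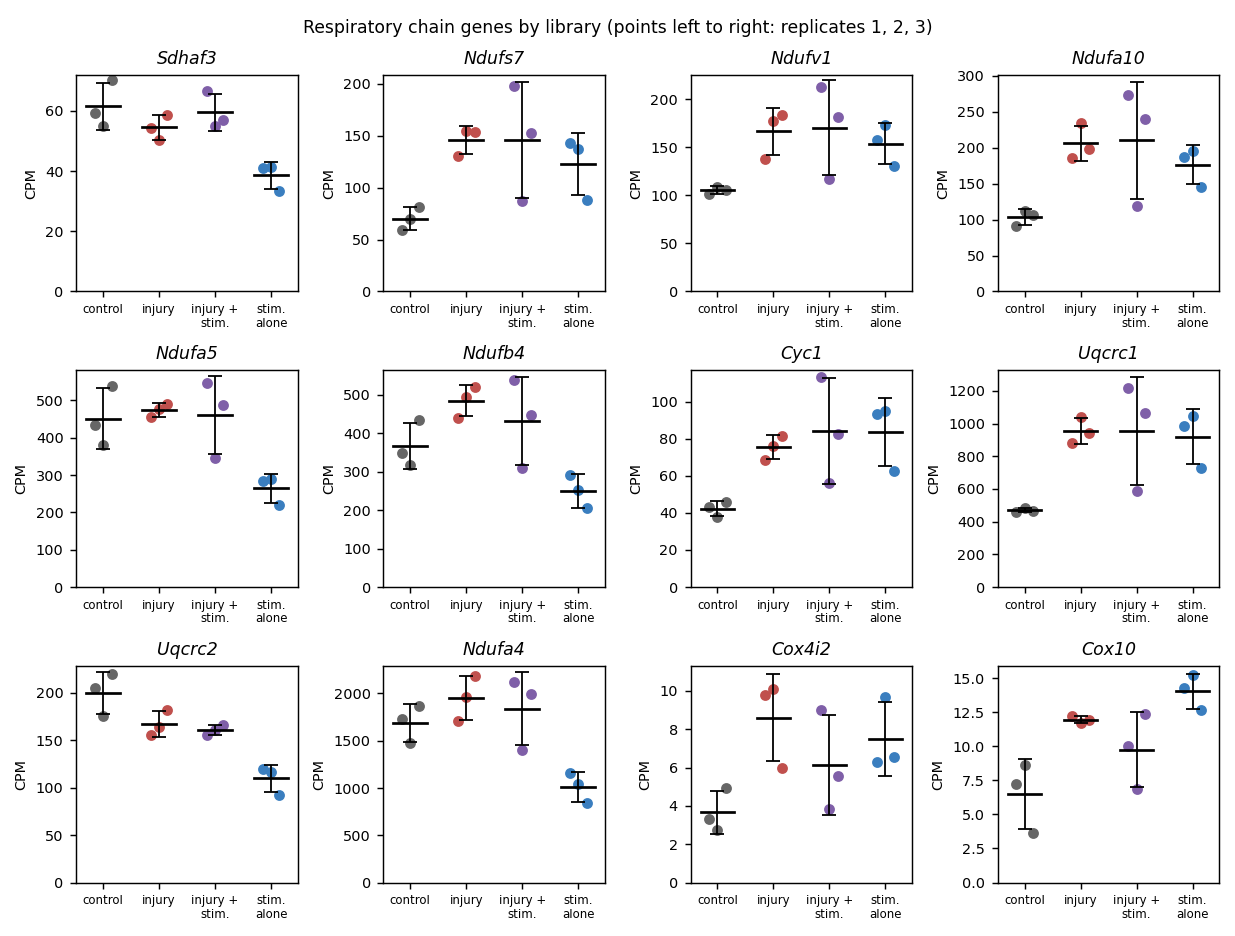
Level of 12 members in CPM (vertical axis, from 0) in each library of the 4 groups (horizontal axis), with points for single libraries, a bar for the group mean and whiskers for 1 SD. Uqcrc1 controls sit at 460.5 to 482 CPM, below all 9 treated libraries, and Uqcrc2 sits at 92.7 to 119 CPM with stimulation alone, below the other 9.

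Complex II was represented by its iron-sulfur subunit Sdhb and by Sdhaf2 and Sdhaf3, which help to add flavin and iron-sulfur clusters to the enzyme. The assembly factors were lower with stimulation alone, and Sdhb was called nowhere. Sdhaf3, counted over its whole exons on chromosome 6 at 6956004 to 7042979, stood at 59.2, 55.2 and 70.3 CPM in controls, 54.5, 50.4 and 58.7 CPM after injury, 66.6, 54.9 and 57.1 CPM after injury with stimulation, and 41.1, 41.5 and 33.4 CPM with stimulation alone. The libraries with stimulation alone lay below the other 9. Their log2 fold change against control was -0.67 ± 0.15 (adjusted p = 0.00278, at most 0.0226 with 1 library left out). Injury with stimulation was 0.62 ± 0.15 above stimulation alone (adjusted p = 0.027), lost without any 1 of the stimulation libraries or of injury with stimulation replicates 1 and 3 (adjusted p up to 0.139).

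Sdhaf2, on chromosome 19 at 10500534 to 10526142, stood at 133, 116 and 154 CPM in controls, 128, 118 and 118 CPM after injury, 129, 104 and 139 CPM after injury with stimulation, and 103, 104 and 96.2 CPM with stimulation alone. Its difference with stimulation alone was -0.41 ± 0.14 on the log2 scale (adjusted p = 0.0379) and, of the fits that left out 1 library, held only in those without control replicate 2 or a library of injury with stimulation (adjusted p otherwise up to 0.192). Sdhb stood at 164 to 218 CPM in controls and 224 to 259 CPM after injury, with no overlap, but its log2 fold change of 0.40 ± 0.18 did not pass the test (adjusted p = 0.102).

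In complex III the measured subunits split. Uqcrc1 and Uqcrc2 encode the paired matrix-facing core proteins, which hold no redox centre and are grouped here as accessory subunits, and Cyc1 encodes the heme protein cytochrome c1. Uqcrc1, measured over 1410 bp of its exons on chromosome 9, at 108936633 to 108949623, stood at 460.5, 482 and 466 CPM in controls, 883, 1037 and 944 CPM after injury, 1218, 584 and 1064 CPM after injury with stimulation, and 986, 1044 and 730.0 CPM with stimulation alone. All 9 treated libraries were above the controls, with the lowest treated values in the libraries that stood apart. Against control the log2 change was 1.02 ± 0.22 after injury (adjusted p = 0.0031), 0.97 ± 0.22 with stimulation alone (adjusted p = 0.00292) and 1.02 ± 0.22 for injury with stimulation (adjusted p = 0.00634). The first and second of these calls held in each fit that left out 1 library, and the third was lost without injury with stimulation replicate 3 (adjusted p = 0.0602).

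Uqcrc2, on chromosome 7 at 120635176 to 120659524, was read through only 122 bp of coding exons in an interval of 4415 bp. It stood at 204, 175 and 219 CPM in controls, 155, 164 and 182 CPM after injury, 155, 160.2 and 166 CPM after injury with stimulation, and 119, 117 and 92.7 CPM with stimulation alone. The group with stimulation alone was below every other library. Its log2 fold change of -0.87 ± 0.14 had the smallest adjusted p of any member in any comparison (0.000379, at most 0.00373 with 1 library left out), while that after injury was -0.26 ± 0.14 (adjusted p = 0.171). Injury with stimulation was 0.55 ± 0.14 above stimulation alone (adjusted p = 0.0369), a call that held only without control replicate 2 or 3 or injury with stimulation replicate 2 (adjusted p otherwise up to 0.19). A further interval over 81 bp of Uqcrc2 exons gave -0.80 with stimulation alone (adjusted p = 0.000908), -0.019 after injury (adjusted p = 0.94) and 0.67 between the stimulated groups (adjusted p = 0.0189).

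Cyc1, on chromosome 15 at 76343523 to 76346260, was read through the 136 bp at its 5′ end, of which the printed stretch is the coding part. It stood at 43.2, 37.9 and 45.8 CPM in controls, 68.5, 76.4 and 81.6 CPM after injury, 113, 56.2 and 82.9 CPM after injury with stimulation, and 93.6, 95.2 and 62.6 CPM with stimulation alone. No treated library reached down to the controls. The log2 fold change was 0.84 ± 0.22 after injury (adjusted p = 0.00855), 0.98 ± 0.22 with stimulation alone (adjusted p = 0.00261) and 0.99 ± 0.22 for injury with stimulation (adjusted p = 0.00683). The first and second calls held in each fit that left out 1 library, and the third was lost without injury with stimulation replicate 3 (adjusted p = 0.0542).

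In complex IV, Ndufa4, a subunit of this enzyme despite its symbol, was counted under its own identifier on chromosome 6 at 11900292 to 11907497. It stood at 1731, 1474 and 1865 CPM in controls, 1709, 1961 and 2182 CPM after injury, 2122, 1401 and 1998 CPM after injury with stimulation, and 1154, 1038 and 845 CPM with stimulation alone. The libraries with stimulation alone were the lowest of the 12. On the log2 scale the change was -0.74 ± 0.19 with stimulation alone (adjusted p = 0.00663, at most 0.0394 with 1 library left out) and 0.21 ± 0.19 after injury (adjusted p = 0.42). Injury with stimulation was 0.86 ± 0.19 above stimulation alone (adjusted p = 0.0183), lost without stimulation replicate 2 or 3 or injury with stimulation replicate 1 or 3 (adjusted p up to 0.111).

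Cox10, the farnesyltransferase that makes heme for complex IV, lies on chromosome 11 at 63962627 to 64079468 and was low, at 7.21, 8.65 and 3.63 CPM in controls. It stood at 12.2, 11.7 and 11.9 CPM after injury, 10.0, 6.86 and 12.4 CPM after injury with stimulation, and 14.3, 15.2 and 12.7 CPM with stimulation alone. Against control the log2 change was 1.11 ± 0.29 with stimulation alone (adjusted p = 0.00822, at most 0.0442 with 1 library left out) and 0.88 ± 0.29 after injury (adjusted p = 0.0311), the latter held only without control replicate 2, stimulation replicate 3 or injury with stimulation replicate 1 or 2 (adjusted p otherwise up to 0.137). A further interval over 170 bp of Cox10 exons gave 0.99 with stimulation alone (adjusted p = 0.0083) and 0.63 after injury (adjusted p = 0.0777). For injury with stimulation against control that interval gave 0.88 (adjusted p = 0.0282), where the first gave 0.58 (adjusted p = 0.184). Cox19, an assembly factor linked to copper delivery, ranged from 43.3 to 59.3 CPM and was called nowhere.

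The tissue isoforms of complex IV were near the lower end of what was tested. Cox4i2, the alternative form of subunit 4 known from lung and from low oxygen (chromosome 2 at 152754173 to 152765037), stood at 3.33, 2.73 and 4.92 CPM in controls, 9.76, 10.1 and 5.97 CPM after injury, 9.00, 3.86 and 5.55 CPM after injury with stimulation, and 6.26, 9.70 and 6.53 CPM with stimulation alone. Its log2 fold change was 1.24 ± 0.36 after injury (adjusted p = 0.0156) and 1.03 ± 0.36 with stimulation alone (adjusted p = 0.0374). Both calls were lost without control replicate 1 or 2, the first also without injury replicate 1 or 2 (adjusted p up to 0.07), and the second also without stimulation replicate 1 or 2 or injury with stimulation replicate 3 (adjusted p up to 0.201).

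Cox7a1, the heart and muscle form of subunit 7a, stood at 5.99, 1.59 and 8.67 CPM in controls, 6.21, 9.77 and 8.89 CPM after injury, 3.55, 3.54 and 4.13 CPM after injury with stimulation, and 3.25, 3.20 and 2.31 CPM with stimulation alone. Among injured mice the stimulated libraries did not overlap the others, with a log2 difference of -1.15 ± 0.43 (adjusted p = 0.264), where 15.2% of all intervals did not overlap. Of 12 skeletal muscle markers 4 could be named (Actn3, Atp2a1, Ckm and Ttn), and none was at 0 in all libraries. In the same order of libraries their sum was 60.08, 5.119 and 615.8 CPM in controls, 109.9, 336.5 and 211.2 CPM after injury, 5.197, 62.92 and 3.899 CPM after injury with stimulation, and 38.85, 3.088 and 52.3 CPM with stimulation alone. The order of libraries by this sum was that by Cox7a1 in the control and injury groups, but in each stimulated group the library with the largest muscle sum had the lowest Cox7a1. The part of muscle RNA in the Cox7a1 values was not tested.

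In complex V, 1 of 3 measured genes was called. Atp5s, which encodes coupling factor B of the ATP synthase, was measured over 111 bp of its exons on chromosome 12, at 69724950 to 69744660. It stood at 17.0, 13.5 and 18.9 CPM in controls, 13.8, 11.9 and 15.3 CPM after injury, 14.2, 16.1 and 17.6 CPM after injury with stimulation, and 10.2, 10.0 and 11.5 CPM with stimulation alone. The log2 fold change with stimulation alone was -0.64 ± 0.20 (adjusted p = 0.0245), lost without control replicate 1 or 3 or stimulation replicate 1 or 2 (adjusted p up to 0.122). Atp5g1, for the membrane ring subunit c, ranged from 1.18 to 6.59 CPM, and Atp5l, for subunit g, from 0.254 to 2.00 CPM, and neither was called.

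The direction of most called members went with the base composition of their transcripts. GC content of the longest transcript ran from 39.48% in Ndufaf4 to 61.42% in Cyc1. The 8 members higher with stimulation alone had between 52.13% and 61.42% GC, with a median of 55.75%, and the 8 lower ones between 39.48% and 52.21%, with a median of 41.33%. Across the 24 members, Spearman's rho between the log2 fold change and GC content was 0.844 after injury, 0.633 with stimulation alone, 0.69 for injury with stimulation against control and -0.723 for the interaction of injury and stimulation. It was -0.231 for injury with stimulation against injury and -0.492 against stimulation alone. Across all 4769 named genes with a GC value the same rho was 0.446, 0.635, 0.471, -0.583, -0.1 and -0.344 in that order. With exon length in place of GC content, rho over these named genes was -0.352, -0.0584, -0.293, 0.146, 0.187 and -0.258. These are descriptions across genes that share the 12 libraries and are not independent replicates, so no p is given.

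**Figure D3:**
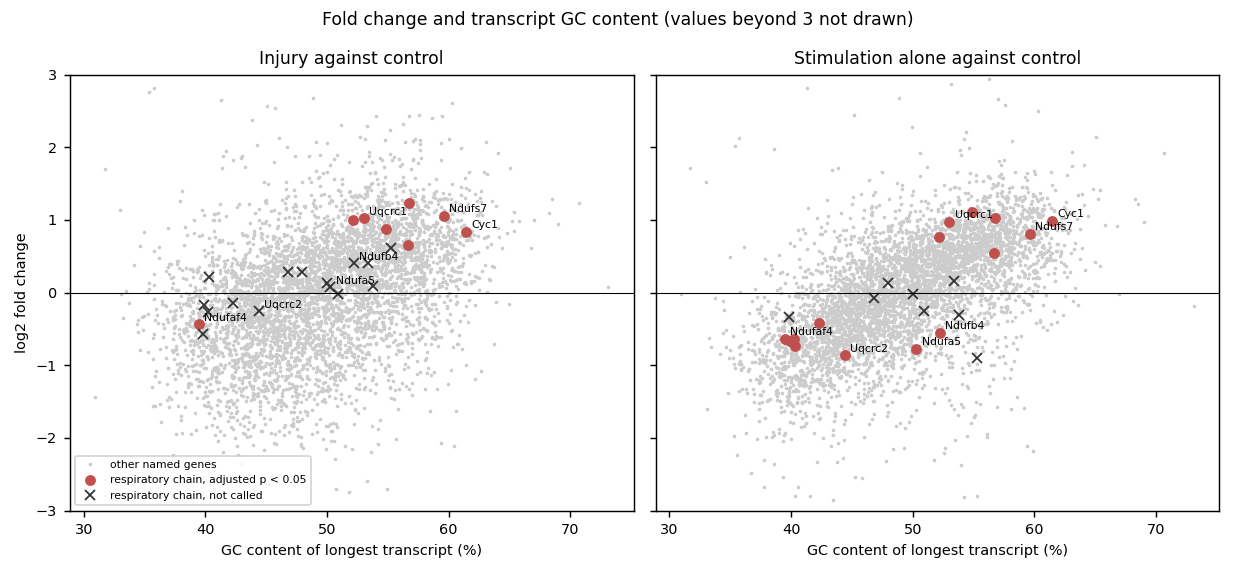
Log2 fold change (vertical axis) against the GC content of the longest transcript in percent (horizontal axis) for named genes (grey) and for 23 members (red circles where called, crosses where not), after injury and with stimulation alone. Called members above 0 lie at 52.13% to 61.42% GC in both panels, and those below 0 in the second panel lie at 39.48% to 52.21%.

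When a smooth trend on GC content and exon length was removed in each library, 5 of the 44 calls on members over the 6 comparisons stayed past the threshold. They were Uqcrc1 after injury (0.66, adjusted p = 0.0468), Ndufa5 with stimulation alone (-0.68, adjusted p = 0.0109), Ndufb4 with stimulation alone (-0.73, adjusted p = 0.0153), and Ndufa10 (0.83, adjusted p = 0.0366) and Uqcrc1 (0.85, adjusted p = 0.0364) for injury with stimulation against control. The other 39 were lost, and 8 of those changed sign. Among them were Cyc1 after injury (-0.055 ± 0.16) and, with stimulation alone, Ndufaf4 (0.16 ± 0.15), Sdhaf3 (0.097 ± 0.18) and Ndufa4 (0.023 ± 0.17). None of the 8 was called with the new sign (adjusted p of 0.546 to 0.958), so they are lost calls and not shown to be reversed. Uqcrc2 with stimulation alone went from -0.87 to -0.45 (adjusted p = 0.0585). Ndufs3 and Cox19, which were called nowhere in the uncorrected fit, were called lower with stimulation alone (-0.63, adjusted p = 0.0164, and -0.45, adjusted p = 0.0497), and Ndufs3 after injury too (-0.47, adjusted p = 0.0376). With the trend removed, members called numbered 2 after injury and 4 with stimulation alone, none of the latter higher, while 17.4% and 8.03% of named genes were called. The removal is fitted on the same libraries, and takes away whatever runs along GC content and length. It also takes away the fitted level of each library, and scaling was recomputed over the named genes. For injury with stimulation against injury, the members' median was -0.00069 without the removal and 0.2156 with it. There rho over named genes was -0.1 with GC content and 0.187 with exon length. Lost calls and changed signs may thus come from the trend or from the rescaling, which were not separated. Where the trend comes from was not tested.

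**Figure D4:**
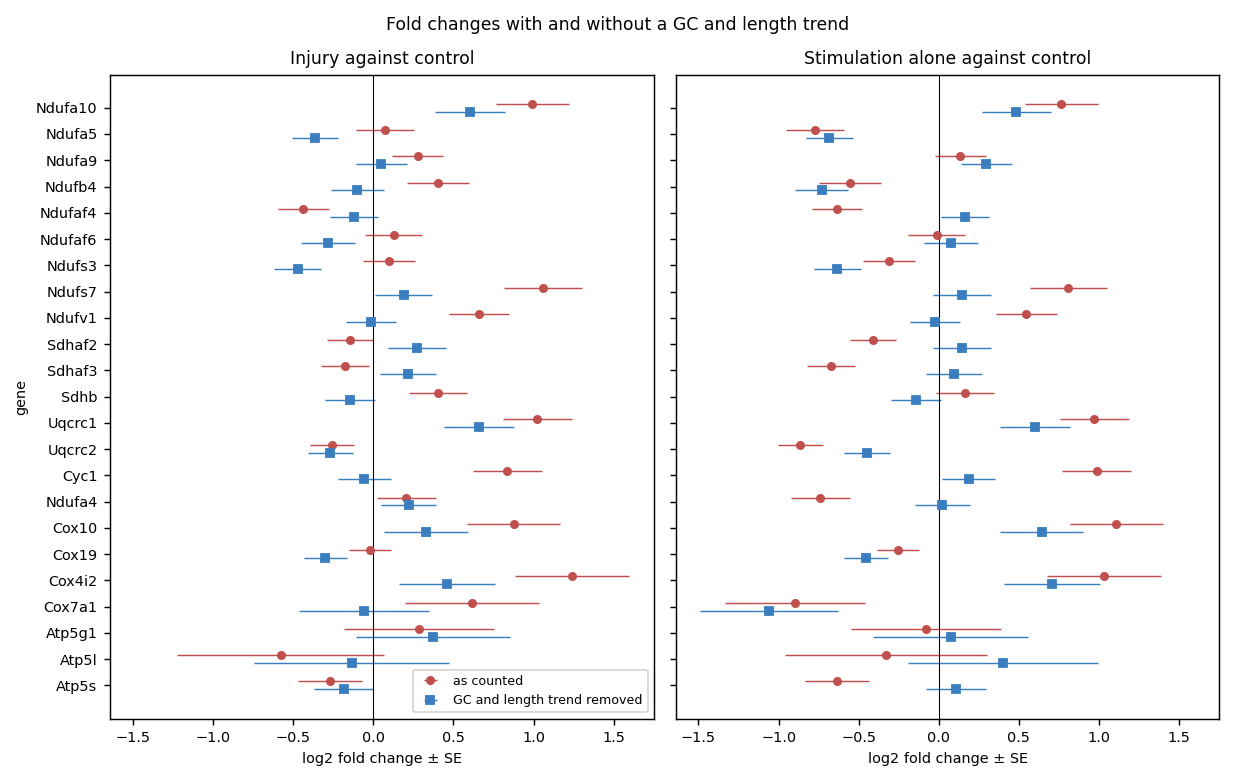
Log2 fold change with its SE (horizontal axis) of 23 members (vertical axis) as counted (red circles) and with the trend on GC content and exon length removed in each library (blue squares), after injury and with stimulation alone. Ndufa5 with stimulation alone is -0.77 as counted and -0.68 with the trend removed, while Ndufa4 goes from -0.74 to 0.023.

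Whether stimulation acted differently with and without the wound was tested by the interaction, the stimulated minus unstimulated difference in injured mice less that in uninjured mice. It was called for 8 of the 24 members, 4 higher and 4 lower, where 6.86% of all intervals were called higher, 12.3% lower and 19.2% in all. The split between directions moved with the scaling and with single libraries. It was 5 higher and 1 lower with DESeq2's size factors in edgeR and with the sum of intervals, 6 and 4 in DESeq2, 3 and 1 with the replicate number as a block, and 5 and 7 with no filter. It was 8 and 0 without injury with stimulation replicate 2, 4 and 8 without replicate 1 of that group, 2 and 0 without injury replicate 2, and 8 and 6 with the libraries that stood apart left out. Higher were Ndufaf4 (0.88 ± 0.22, adjusted p = 0.0137), Sdhaf3 (0.80 ± 0.21, adjusted p = 0.0164), Uqcrc2 (0.81 ± 0.20, adjusted p = 0.0118) and Atp5s (0.86 ± 0.28, adjusted p = 0.0423), which were low with stimulation alone and showed no such drop under stimulation after injury. Lower ones included Uqcrc1 (-0.97 ± 0.30, adjusted p = 0.035), Cox10 (-1.40 ± 0.41, adjusted p = 0.0249) and Cox4i2 (-1.53 ± 0.50, adjusted p = 0.0398). In the further interval of Cox10 the interaction was -0.74 and was not called (adjusted p = 0.166). Only the Ndufaf4 and Uqcrc2 calls held in each fit that left out 1 library, and with the trend on GC content and length removed none of the 8 did (adjusted p of 0.116 to 0.829). With that trend removed, 2 other members were called instead, Ndufa5 (0.89, adjusted p = 0.0263) and Ndufs3 (0.87, adjusted p = 0.032), where 2.98% of named genes were called.

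Genes of mitochondrial energy metabolism outside the rule were read from the main fit, without removal of the trend on GC content and length. No values with that trend removed are given for them or for the cell type markers, so whether their calls would stay was not examined. The mitochondrially encoded subunits that could be named, mt-Co2 of complex IV, mt-Cytb of complex III and mt-Nd3 of complex I, were all lower with stimulation alone, by log2 fold changes of -1.97 ± 0.30 (adjusted p = 0.000288), -1.17 ± 0.22 (adjusted p = 0.000929) and -1.60 ± 0.23 (adjusted p = 0.000193). After injury none of the 3 was called, with changes of -0.11, -0.059 and -0.026. After injury with stimulation mt-Nd3 (-1.05, adjusted p = 0.00678) and mt-Co2 (-1.06, adjusted p = 0.0216) were lower than in controls, and mt-Nd3 was lower than after injury alone (-1.02, adjusted p = 0.0277). Their summed level was 40190 to 52960 CPM in controls, 44440 to 50210 CPM after injury, 28530 to 38290 CPM after injury with stimulation and 16350 to 25950 CPM with stimulation alone, the last without overlap. Over all intervals, 31.0% were called after injury and 11.7% lower with stimulation alone, and 47.1% did not overlap between stimulation alone and control. For injury with stimulation, 4.93% were called lower against control and 1.5% against injury. Of 4 tested electron carriers and assembly factors whose symbols fall outside the rule, none was called in any of the 6 comparisons. These are too few to set against shares of 1.54% to 31.0% over all intervals.

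The counts of the following lists stand against 19.3% of all intervals called higher and 11.7% lower after injury, and 18.2% and 11.7% with stimulation alone. Of 7 tested genes of the tricarboxylic acid cycle and pyruvate entry, 3 were higher after injury and 3 with stimulation alone, with none lower. Ogdh, a subunit of the 2-oxoglutarate dehydrogenase of that cycle, changed by 0.87 ± 0.16 (adjusted p = 0.00171) and 1.102 ± 0.163 (adjusted p = 0.000221). Of 7 glycolysis genes, 5 were higher after injury and 4 with stimulation alone, with none lower. Hk1, which encodes the main hexokinase of neurons, changed by 0.60 ± 0.14 (adjusted p = 0.00507) and 1.35 ± 0.14 (adjusted p = 3.63e-05). The regulators of mitochondrial biogenesis had 3 of 6 higher after injury, Pprc1 (0.49), Yy1 (0.54) and Nrf1 (0.43), and 1 with stimulation alone, Yy1 (0.54). Of 10 mitochondrial ribosomal genes 1 was higher after injury, and 1 was higher and 3 were lower with stimulation alone. Of 8 genes of mitochondrial import and carriers 2 were higher after injury, and 1 was higher and 4 were lower with stimulation alone, Phb2, an inner-membrane scaffold protein, being higher in both (1.07 and 1.06). Of 4 genes of reactive oxygen defence none was called after injury, and 1 was higher and 1 lower with stimulation alone. Of 6 cytosolic ribosomal genes, outside mitochondria, 1 was higher after injury and 2 were lower with stimulation alone.

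Markers of cell types moved with the groups as well. Fibroblast and meningeal markers (6 of 8 named) summed to 9127 to 10010 CPM in controls and 27320 to 27610 CPM after injury, against 8291 to 10030 CPM after injury with stimulation and 4685 to 9152 CPM with stimulation alone. Genes of this list did not all move alike. Dcn was lower than in controls with stimulation alone (-1.77, adjusted p = 2.23e-05) and after injury with stimulation (-0.68, adjusted p = 0.00983). By the interaction Dcn was higher (0.96, adjusted p = 0.0107), and Slc6a13 (-1.52, adjusted p = 0.00145) and Ptgds (-1.50, adjusted p = 0.0209) were lower. Myelinating Schwann cell markers (5 of 9 named) summed to 3184 to 4155 CPM in controls, 6709 to 8512 CPM after injury, 3412 to 6524 CPM after injury with stimulation and 5004 to 5364 CPM with stimulation alone. Oligodendrocyte markers (3 of 5 named), not of the ganglion itself, summed to 99.08 to 159.6 CPM in controls, 309.2 to 549.8 CPM after injury, 64.27 to 162.6 CPM after injury with stimulation and 101.2 to 194.0 CPM with stimulation alone. The genes named for Schwann cells are myelin genes, and the part of oligodendrocytes in their sum was not tested. Sensory neuron markers summed to 7335 to 8899 CPM after injury and 8469 to 10230 CPM with stimulation alone. Within that list Thy1 (0.93) and Uchl1 (0.92) were higher after injury (adjusted p = 0.00662 and 0.00985), and P2rx3, an ATP-gated channel of nociceptors, was lower (-0.56, adjusted p = 0.0205). Macrophage markers (4 of 8 named) summed to 113.3 to 131.9 CPM in controls, 184.6 to 219.4 CPM after injury, 94.63 to 109.8 CPM after injury with stimulation and 72.12 to 97.48 CPM with stimulation alone. No named marker of these lists was at 0 in all libraries. The part of cell composition in the respiratory chain values was not tested. Satellite glia markers (3 of 8 named) summed to 387.0 to 499.5 CPM in controls and 303.9 to 518.2 CPM over the other groups, but its genes moved in opposite directions. Kcnj10 was higher after injury (1.64, adjusted p = 0.00185) and with stimulation alone (1.03, adjusted p = 0.0168). Cdh19 (-1.12, adjusted p = 0.00304, and -1.60, adjusted p = 0.000235) and Ptprz1 (-0.48, adjusted p = 0.0305, and -0.58, adjusted p = 0.0116) were lower in both. In controls and in the other groups, endothelial markers (2 of 5 named) summed to 8.784 to 15.7 CPM and 15.24 to 28.74 CPM, the brown fat marker Cidea to 7.394 to 14.76 CPM and 9.791 to 22.69 CPM, and the red cell gene Alas2 to 19.34 to 37.69 CPM and 9.974 to 78.21 CPM.

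Promoters of the members were searched for the letters that known regulators of respiratory genes bind, in the 250 bases before the start of each gene, on both strands, in RefSeq sequence of GRCm38.p6. Of 107 member symbols, 85 had a promoter in that table. The NRF1 letters GCGCATG were found in 12.9% of these and in 3.68% of all 27025 promoters. The GABPA letters CCGGAAG were found in 22.4% against 7.83%, the YY1 letters ATGGCGG in 7.06% against 2.58%, the SP1 letters GGGCGG in 44.7% against 35.4%, and the letters AAGGTCA of the estrogen-related receptors in 5.88% against 4.7%. The YY1 and SP1 letters both end in GGCGG but differ in the base before it, so on 1 strand the same GGCGG cannot count for both. Among the measured members with a promoter, the SP1 letters stood in 2 of the 5 that were higher with stimulation alone and in 5 of the 6 that were lower, numbers too small to compare. The 27025 promoters were not matched to the members by type of gene or GC content. Promoter GC content ran from 44.0% to 79.2% in the 18 measured members with a promoter. The part of base composition in the higher shares was not tested. These matches describe letters and do not show binding.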

How the data were processed

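Bulk RNA was measured in 12 trigeminal ganglion libraries of 4 groups of 3, grouped by the submitters' labels. The authors deposited whole-number counts per gene interval for 56941 intervals, made per the file headers with featureCounts 2.0.6 on Ensembl gene models (release 110, GRCm39), unstranded and with reads allowed in several genes. Reads rather than fragments were counted, since the headers request no fragments. Other tools (Salmon 1.10.2, FastQC, DESeq2) stand in the submitters' processing notes. The aligner is not given in the sources used here. Because the reads lie on GRCm38, intervals were named by position with GENCODE M21, at least 100 bp of exons of exactly 1 gene. Where several intervals qualified, the one with most exon bases took the name, which named 9969 genes (4771 tested).

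Counts were tested with edgeR 4.0.16 in R 4.3.3: TMM scaling, filterByExpr, a robust quasi-likelihood F test (two-sided) in 1 fit of all 12 libraries, and Benjamini-Hochberg adjustment over 13053 intervals, with a call at an adjusted p under 0.05. Levels are counts per 1000000 on the TMM-scaled library size. Totals of 7952798 to 10751547 counts limit the precision of low members. SE is the log2 fold change over the root of F. The common biological coefficient of variation was 0.2352. On simulated data for injury against control (12475 genes), 32.99% of genes changed by 1 on the log2 scale and 93.62% of those changed by 2 were recovered, with 4 false calls. There 97 genes were changed by 1 and 94 by 2, all genes shared 1 spread, and no trend on GC content was put in. In the real comparison 31.0% of intervals were called, so these rates do not carry over to it.

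The alternatives were DESeq2 1.42.0, its size factors in edgeR, no filter on low counts, only the groups compared, the replicate number as a block, each library left out, at least 300 exon bases, the sum of a gene's intervals, and removal of a loess trend (span 0.5) of each library on GC content of the longest transcript and exon length across 4769 named genes, with adjustment over those alone. The trend as removed includes the fitted level of each library, and TMM scaling was recomputed over the named genes for that fit. Leaving out both libraries that stood apart, and asking for exons over at least 50% of the interval, were added after the data were seen.

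The members and all lists were chosen with earlier results of these data known. Of the 24 measured members, 23 are named and shown, and 1 stays in the counts and summaries but is not reported here. For those named, library values are given for members called in at least 1 of the 6 comparisons or among the 3 smallest p-values of one. Of the other lists (mitochondrially encoded, carriers and assembly factors outside the rule, tricarboxylic acid cycle, mitochondrial ribosome, import and carriers, biogenesis regulators, glycolysis, reactive oxygen defence, cytosolic ribosomal, and the cell type markers), up to 3 genes with the smallest p were named.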

Additional observations from a re-analysis of the deposited data

Results flagged for a closer look

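The effect of stimulation differed between injured and uninjured mice for 8 of the 24 members, by the test of the difference itself, 4 higher and 4 lower, where 19.2% of all intervals were called, 6.86% higher and 12.3% lower. With the trend on GC content and length removed, none of the 8 stayed past the threshold (adjusted p of 0.116 to 0.829), and 2.98% of named genes were called. The value is the log2 difference between stimulated and unstimulated injured mice minus that in uninjured mice. It was 0.88 for Ndufaf4, 0.80 for Sdhaf3, 0.81 for Uqcrc2 and 0.86 for Atp5s, whose stimulated minus unstimulated differences were 0.25, 0.13, -0.06 and 0.23 with injury and -0.63, -0.67, -0.87 and -0.64 without it. Among the others it was -0.97 for Uqcrc1, -1.40 for Cox10 and -1.53 for Cox4i2, with differences of 0.00081, -0.29 and -0.50 with injury and 0.97, 1.11 and 1.03 without it. A further interval of Cox10 gave -0.74, which was not called (adjusted p = 0.166).

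The Ndufaf4 and Uqcrc2 values stayed past the threshold in each fit that left out 1 library. Sdhaf3 was lost without control replicate 3 or injury replicate 2 (adjusted p up to 0.0544), and Cox10 without control replicate 3, injury replicate 2, injury with stimulation replicate 2 or stimulation replicate 1 or 2 (adjusted p up to 0.0868). Uqcrc1 held only without injury replicate 1, injury with stimulation replicate 1 or stimulation replicate 3 (adjusted p otherwise up to 0.166). Cox4i2 held only without control replicate 3, injury replicate 3, injury with stimulation replicate 1 or stimulation replicate 3 (adjusted p otherwise up to 0.158), and Atp5s only without control replicate 2, injury with stimulation replicate 1 or 2 or stimulation replicate 3 (adjusted p otherwise up to 0.122).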

How the results depend on the processing

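Of the 44 calls on single members, none changed sign under DESeq2 (44 called), DESeq2's size factors in edgeR (40), no filter (39), the sum of intervals (40) or with both libraries that stood apart left out (43). In fits of only the groups compared, 29 of 36 stayed called. With the trend on GC content and length removed, 5 stayed called and 8 changed sign: after injury Ndufv1 (-0.01512) and Cyc1 (-0.05501), and with stimulation alone Ndufaf4 (0.1629), Ndufv1 (-0.02247), Sdhaf2 (0.1446), Sdhaf3 (0.09662), Ndufa4 (0.02281) and Atp5s (0.1089). None of the 8 was called with the new sign (adjusted p of 0.546 to 0.958). The number of members called after injury was 9, and 2 with the trend removed, 1 with exons over at least 50% of the interval (where only 6 members are tested) and 4 to 9 with 1 library left out. With stimulation alone it was 16, and 4, 4 and 9 to 16 in the same order. For injury with stimulation against injury it was 0 in every fit that left out 1 library. Against stimulation alone it was 5, and 0 with the trend removed, 3 with exons over at least 50%, 3 with no filter, 0 with only the groups compared and 0 to 8 with 1 library left out. In the fit of only the groups compared, no interval of the whole table was called either. Against control it was 6, and 2 with the trend removed, 0 with exons over at least 50%, 3 with at least 300 exon bases, 12 without the libraries that stood apart and 0 to 10 with 1 library left out. For the interaction it was 8, and 2 with the trend removed, 2 with exons over at least 50%, 5 with at least 300 exon bases, 14 without the libraries that stood apart and 2 to 12 with 1 library left out. With the trend removed, the share of named genes called for injury with stimulation was 0.944% against stimulation alone and 6.94% against control. For the interaction it was 2.98%. The exon settings test fewer members. For the other changes the cause was not tested.

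With the replicate number as a block, 30 of the 44 calls stayed, and the members called numbered 1 between the stimulated groups and 4 for the interaction. Nothing in the labels pairs same-numbered libraries, and their deviations from the group means correlated between -0.2625 and 0.1973 over 18 pairs, with 1 over 0.1. Counts per library were few for Atp5l (2 to 18), Atp5g1 (11 to 52), Cox7a1 (14 to 92) and Cox4i2 (24 to 95), whose SE of the log2 difference between groups was 0.3455 to 0.6986. The part of depth in these errors was not tested.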
